A study of Mus musculus with 6 samples.

Results

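The genes described are 7 members of the MHC class I presentation pathway: the heavy chain genes H2-K1, H2-D1 and H2-T23, the light chain gene B2m, the peptide transporter genes Tap1 and Tap2, and Tapbp, which encodes tapasin. They were taken by gene name from the array design, control spots left out and every probe kept, which gave 9 of the 20868 probes on the array. H2-K1 and H2-T23 had 2 probes each. All 9 were among the 19751 probes tested, so no member was lost to the filter on dim probes. RNA came from mouse HACA cells, a line for which the labels give no tissue. Cells carried a short hairpin RNA directed against Loxl2 (shLoxl2), against Snail (shSnail) or, as the control, against GFP (shGFP), so every group, controls included, carried a hairpin. Each of the 6 Agilent 2-colour arrays held RNA of silenced cells in one dye and shGFP RNA in the other. The shLoxl2 RNA of each of 2 replicate numbers was hybridised in both dye orientations, giving 4 arrays, and shSnail RNA of 2 replicate numbers was hybridised in Cy5 alone. Whether the lines were clones or pools, and whether samples that share a hairpin were grown apart, is not given in the labels. The p-values therefore measure the spread between these samples, which may be technical.

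MHC class I molecules display peptides of cytosolic proteins on the cell surface to CD8 T cells and natural killer cells. A heavy chain pairs with beta-2 microglobulin in the endoplasmic reticulum, where the transporter made of TAP1 and TAP2 delivers peptides cut by the proteasome, and tapasin bridges the transporter to the empty heavy chain. Most nucleated cells transcribe these genes at some level, and interferons, NF-kB and the transactivator NLRC5 are known to raise their transcription together.

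The sequences around the transcription starts were searched for letter patterns of known types of control element. RefSeq windows (assembly GRCm38.p6) of 250 bases before to 50 after each start were held for 6 of the 7 genes. The 4 below are the upstream parts for the heavy chains and B2m, because together these genes encode the class I molecule itself. They are written 5′ to 3′ along the gene. Capitals mark, where present, an NF-kB-type sequence (GGGGATT directly followed by CCCC, or GGGA and TTTCC with 1 base between), an interferon-response-type sequence (GAAGTGAAA, or GAAA and GAAA with 2 bases between), TGACG (the core of a CREB/ATF site) and CCAAT (the NF-Y site), on either strand. H2-K1 is at chr17:34000349-34000468 on the minus strand, H2-D1 at chr17:35262913-35263055 on the plus strand, H2-T23 at chr17:36032739-36032835 on the minus strand and B2m at chr2:122147538-122147648 on the plus strand.
H2-K1: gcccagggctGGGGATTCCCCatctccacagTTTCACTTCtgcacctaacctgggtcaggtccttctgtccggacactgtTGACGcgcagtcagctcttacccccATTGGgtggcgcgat
H2-D1: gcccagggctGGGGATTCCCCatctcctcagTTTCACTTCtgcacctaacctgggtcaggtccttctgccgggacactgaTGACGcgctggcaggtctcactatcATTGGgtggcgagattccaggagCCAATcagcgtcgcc
H2-T23: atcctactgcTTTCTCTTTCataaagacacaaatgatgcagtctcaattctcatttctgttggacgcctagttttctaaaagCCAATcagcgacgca
B2m: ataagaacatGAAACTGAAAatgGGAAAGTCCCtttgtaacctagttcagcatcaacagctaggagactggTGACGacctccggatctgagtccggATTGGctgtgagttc

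The H2-K1 and H2-D1 windows were identical at 166 of 190 aligned bases (87.4%). Both held the palindromic NF-kB-type sequence, which was found in 10 of all 32851 windows of this length (0.0304%), and GAAGTGAAA, found in 0.505% of them. These last motifs were added after the sequences had been read. B2m and H2-T23 held GAAA and GAAA with 2 bases between, as did 3.44% of all windows, and B2m alone held GGGA and TTTCC with 1 base between (0.411%). TGACG occurred in H2-K1, H2-D1, B2m and Tap1 (20.8% of all windows), and CCAAT in all 6 genes (37.4%). GGGCGG, the core of an Sp1 site, occurred in Tap1 and Tapbp (35.7%). The other patterns searched were GGGA and TTCC with 2 bases between (1.47% of all windows), which B2m held at the same place, and TTCNNNGAA (8.3%) and TGACGTCA (1.79%), which were not found in these windows. All patterns were searched on both strands. A match describes letters in the window, not a bound site.

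Spots well above background made up 85.4% to 92.4% of probe spots in the Cy5 channel and 55.9% to 74.9% in Cy3, so the number of arrays and the dimmer Cy3 channel limited precision. Over all tested probes the sign-turned ratios of the 2 arrays of a dye swap correlated at 0.0225 in shLoxl2 replicate 1 and -0.0295 in replicate 2, whereas the 2 pair averages correlated at 0.676 and the 2 shSnail arrays at 0.876. These correlations are over probes, which are not replicates. The ratio of Loxl2 itself turned with the dye, at 1.38 and 1.04 with shLoxl2 RNA in Cy3 and -1.30 and -0.68 with it in Cy5. Snai1 had log2 ratios of -0.23 and 0.19 on the shSnail arrays. Neither transcript therefore checked the labels, and every direction below rests on them. All shLoxl2 arrays were scanned on one day and both shSnail arrays on another, so scan day and hairpin cannot be told apart in shSnail against shLoxl2.

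In shLoxl2 cells the class I heavy chains, both transporter chains and tapasin were higher than in shGFP cells. Of the 9 probes 8 rose and none fell (limma, adjusted p under 0.05), covering 6 of the 7 genes, where 13.9% of all tested probes moved, 8.08% higher and 5.85% lower. The probe that did not pass was B2m. All 9 had an unadjusted p under 0.05. The median log2 fold change of the 9 was 1.04, against -0.01 over all tested probes. Of 36 ratios (9 probes on 4 arrays) 35 were above 0, and 8 probes were above 0 on all 4 arrays, as were 13.9% of all tested probes. Each shLoxl2 value rests on n = 2 samples, and its error is the standard error (SE) of the fit.

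H2-K1 encodes the classical heavy chain K. Its probe A_51_P198434, at chr17:33606564-33606623 in the files' build mm8, had log2 ratios of silenced over shGFP RNA of 1.05 (Cy3) and 0.95 (Cy5) in shLoxl2 replicate 1 and 1.30 and 0.87 in replicate 2. All lay above the shSnail ratios of 0.27 and 0.20. The fitted change in shLoxl2 was 1.04 ± 0.11 (SE) on the log2 scale, a 2.06-fold rise with a 95% interval of 1.71 to 2.47 (adjusted p = 0.00446). The spot was saturated in the shLoxl2 channel on the 2 Cy5 arrays, so those ratios are lower bounds. The second H2-K1 probe, A_51_P424261 at chr17:33606800-33606858, had shLoxl2 ratios of 0.69 and 1.26 in replicate 1 and 1.68 and 1.45 in replicate 2. It rose 2.41-fold (1.79 to 3.25, adjusted p = 0.00899) and was saturated on no array. Its shSnail ratios were -0.13 and 0.20, on either side of 0. A further probe, which the files name LOC56628 and which starts within the first H2-K1 probe (at 33606572), had a log2 change of 1.33 in shLoxl2 (adjusted p = 0.00241). It is no member by name and was singled out after its value was seen.

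H2-D1 encodes the classical heavy chain D. Its probe A_51_P229461 had shLoxl2 ratios of 0.75 and 0.75 in replicate 1 and 1.17 and 0.97 in replicate 2, a narrower spread than that of the second H2-K1 probe. On the shSnail arrays the ratios were -0.16 and -0.12. The fitted rise in shLoxl2 was 1.88-fold (1.52 to 2.32, adjusted p = 0.00873). The files place this probe at chr17:35751394-35751453, among probes of T region genes, so its identity rests on the name in the design.

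H2-T23 encodes Qa-1, a non-classical heavy chain that presents leader peptides of other class I molecules to natural killer cell receptors. Probe A_51_P410935 (chr17:35637906-35637965) had shLoxl2 ratios of 1.01 and 1.01 in replicate 1 but 0.28 and 0.67 in replicate 2. Probe A_51_P237760 (chr17:35638928-35638987) had 1.03 and 0.99 in replicate 1 and 1.93 and 1.29 in replicate 2. The 2 probes thus gave like values in replicate 1 and parted in replicate 2, where the first was lower and the second higher. Their fitted rises were 1.67-fold (1.27 to 2.21, adjusted p = 0.0361) and 2.48-fold (1.86 to 3.3, adjusted p = 0.00745). The transcripts that the files list for A_51_P237760 carry RefSeq names of 4 genes, H2-Bl, H2-K1, H2-Q6 and H2-T23, so this probe cannot be given to 1 heavy chain with certainty. Near-identical copies make the same true, to an unknown degree, of every H2 probe named here.

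B2m, on chromosome 2 (chr2:121844230-121844286), encodes beta-2 microglobulin, the light chain common to all class I molecules. Its shLoxl2 ratios were 1.77 and 1.68 in replicate 1 but 0.14 and 0.67 in replicate 2. Replicate 1 was thus 3.31-fold above shGFP in the average of its dye swap and replicate 2 was 1.33-fold above. The fitted change of 1.07 ± 0.29 (SE) on the log2 scale was as large as that of H2-K1, with an interval of 1.27- to 3.45-fold, but did not pass (limma, adjusted p = 0.0687). In shSnail the ratios were 0.86 and 0.91, between those of the 2 shLoxl2 replicates. B2m was the member with the highest ratios in shSnail.

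Tap1 and Tap2 encode the paired chains of the peptide transporter and had dim probes. Tap1 (A_51_P100327, chr17:33804121-33804180) had shLoxl2 ratios of 0.34 and 0.71 in replicate 1 and -0.05 and 0.82 in replicate 2. The lower value of each pair was that with shLoxl2 RNA in Cy3, and neither RNA was well above background in Cy3 on any of the 4 arrays. Its rise of 1.37-fold (1.13 to 1.66) passed narrowly (adjusted p = 0.0494) and did not pass in 11 of 15 other settings, where its adjusted p ran from 0.00768 to 0.463 over all 15. Tap2 (A_51_P300753, chr17:33825007-33825066) had ratios of 0.11 and 0.96 in replicate 1 and 0.90 and 1.21 in replicate 2. It was well above background in the shLoxl2 channel on all 4 arrays and rose 1.73-fold (1.34 to 2.25, adjusted p = 0.0238). The shGFP channel was well above background on 2 of them only, so the fold rests in part on spots near background. Over the other settings its log2 change ran from 0.271 with no background subtraction to 2.24 with centred scanner ratios. It did not pass in 3 of those 15 settings, among them the one without shLoxl2 replicate 2 (log2 0.53), which holds 1 shLoxl2 value.

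Tapbp encodes tapasin, the chaperone that holds the heavy chain at the transporter. Its probe (A_51_P304500, chr17:33539531-33539590) had shLoxl2 ratios of 0.83 and 1.16 in replicate 1 and 1.49 and 1.42 in replicate 2, with shLoxl2 replicate 2 above replicate 1 in both dyes. The rise was 2.34-fold (1.79 to 3.05, adjusted p = 0.00742). Its shSnail ratios, 0.35 and 0.67, lay above 0 and below all 4 shLoxl2 values.

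**Figure D1:**
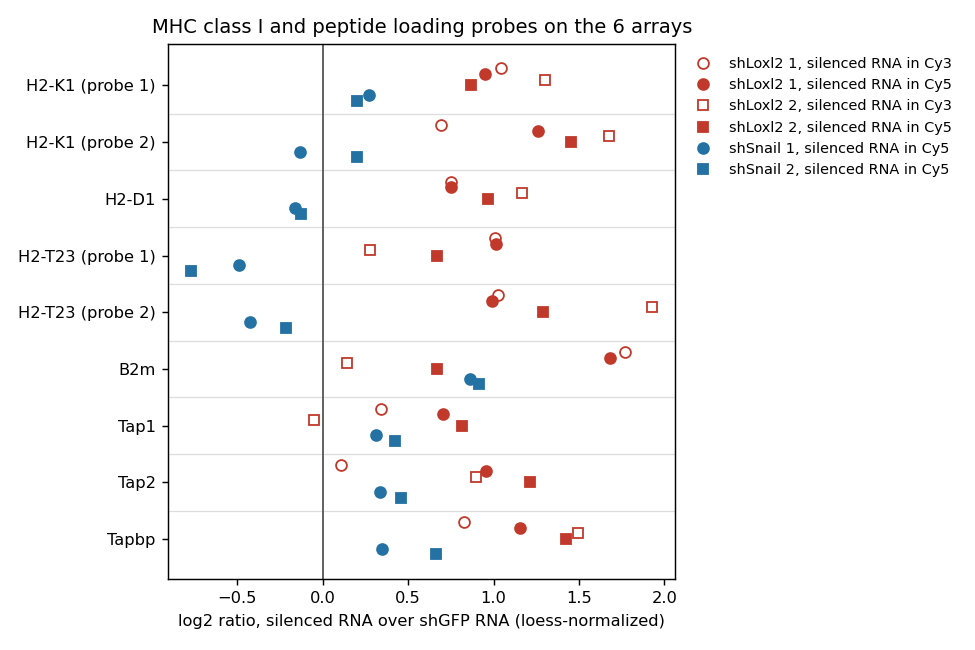
Log2 ratios of silenced over shGFP RNA (horizontal axis) for the 9 probes (rows) on the 6 arrays. Red points are the 4 shLoxl2 arrays and blue points the 2 shSnail arrays, circles are replicate 1, squares replicate 2, and open symbols have the silenced RNA in Cy3. Of the 36 red points 35 lie right of 0, and B2m, Tap1 and Tap2 are rows in which blue points lie among the red ones.

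The scanner software's own log ratios, which are not loess-normalized, kept all 9 values in shLoxl2 above 0 (0.62 to 2.22) but called 1 of the 9, with 776 probes called over the whole array against 2751. The scanner's ratios also treat the background differently. Median centring in place of loess still called 8, and the scanner's ratios centred on each array's median still called 1. The direction of the 9 probes in shLoxl2 did not change in any setting tried. Without shLoxl2 replicate 1 the 9 values ran from 0.383 to 1.61, and without replicate 2 from 0.525 to 1.73. Each of these fits holds 1 shLoxl2 value. Its spread comes from the shSnail arrays alone, so its calls are no test.

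In shSnail cells none of the 9 probes passed against shGFP, where 15.2% of all tested probes moved, 5.88% higher and 9.31% lower. The per-probe dye effect, taken from the dye-swapped shLoxl2 arrays, was removed in full in this fit. Over all tested probes the mean shSnail ratios followed that effect with a slope of 0.453 (correlation 0.362). Full removal can therefore overcorrect probes with a strong dye effect. With limma 1 probe had an unadjusted p under 0.05, the H2-T23 probe A_51_P410935. The median log2 fold change of the 9 was 0.06, against -0.04 over all tested probes. A further count was of sign: 5 probes had ratios above 0 on both arrays, as did 45% of all tested probes, and 3 had ratios below 0 on both. Settings other than the one used called 0 to 2 of the 9, in both directions. The H2-T23 probe A_51_P410935 passed as lower in 6 of 15 such settings and A_51_P237760 in 1. The H2-K1 probe A_51_P198434 passed as higher in 1 of 15 and B2m in 2. With the dye effect scaled, the 9 fitted values ran from -0.674 to 0.838.

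The heavy chain probes lay near or below their shGFP levels in shSnail, except the first H2-K1 probe, which was higher without passing. H2-K1 had fitted log2 changes of 0.37 (95% interval -0.00457 to 0.744) and -0.05 (-0.76 to 0.65) at its 2 probes, with adjusted p = 0.165 and 0.93. H2-D1 had -0.09 (-0.53 to 0.34, adjusted p = 0.776). The intervals of the second H2-K1 probe and of H2-D1 therefore leave out a rise of the size fitted in shLoxl2. The H2-T23 probe A_51_P410935 had ratios of -0.49 and -0.77 and a fitted change of -0.73 (-1.33 to -0.13, adjusted p = 0.103), while A_51_P237760 had -0.42 and -0.22 and a fitted change of -0.15 (-0.81 to 0.51, adjusted p = 0.76).

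For the light chain and the loading genes the shSnail values were at or above 0. B2m had a fitted change of 0.78 (-0.39 to 1.94, adjusted p = 0.334), the widest interval of the 9. Its 2 shSnail ratios differed little from each other, and its fitted interval takes in the spread between the 2 shLoxl2 replicates. Tapbp had 0.44 (-0.13 to 1.01, adjusted p = 0.261). Tap1 and Tap2 had ratios of 0.31 and 0.42, and of 0.33 and 0.46, and fitted changes of 0.06 and 0.10 once the dye effect of 0.31 and 0.29 was removed. Their shGFP channel was not well above background on either shSnail array. Without the dye correction, Tap1 was 1.29-fold and Tap2 1.32-fold higher in shSnail. These values rest on spots near background and are open to dye bias. A bound sets the mean Cy5 level of shSnail against, on each array, the higher of the probe's own Cy3 level and the lowest Cy3 level well above background. For Tap1 and Tap2 the probe's own Cy3 level was the higher, so their values are the measured ratios and no minimum.

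**Figure D2:**
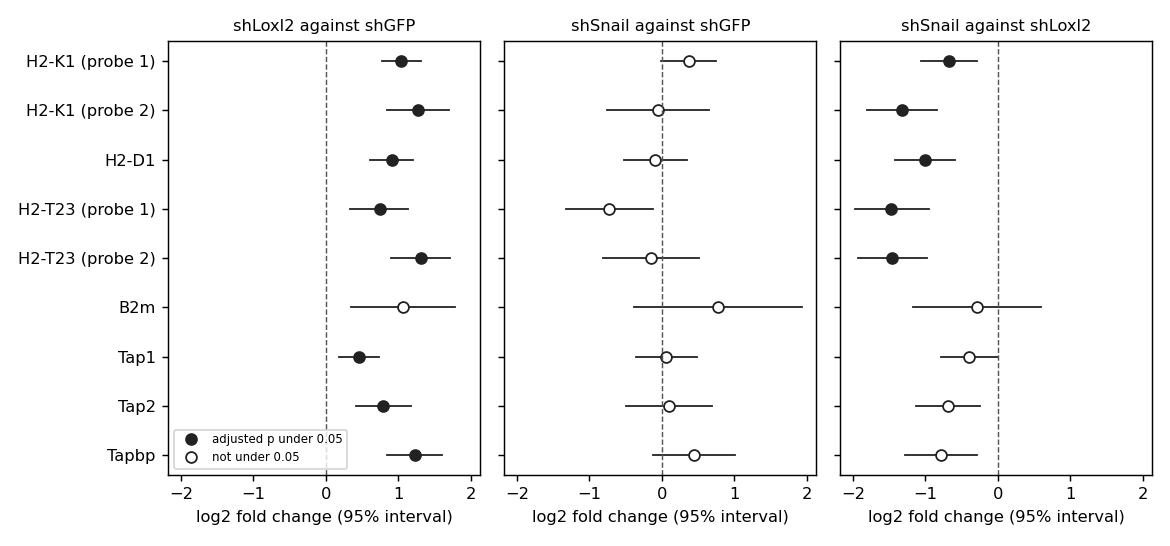
Fitted log2 fold changes with 95% intervals (horizontal axis) for the 9 probes (rows) in the 3 comparisons (panels), filled where the adjusted p was under 0.05. In the left panel 8 points are filled and all intervals lie right of 0, the middle panel has no filled point, and in the right panel the 5 heavy chain probes are filled and lie left of 0.

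Set directly against each other on the 4 arrays with silenced RNA in Cy5, the heavy chains were lower in shSnail than in shLoxl2. A dye effect cancels in this comparison only if it is equal on the arrays of both hairpins. The slope of 0.453 given above means that part of it can remain. At the heavy chain probes the dye effect ran from -0.17 to 0.10. All 5 heavy chain probes fell and the 4 other probes did not pass (limma), where 12.8% of all tested probes moved, 8.56% lower and 4.24% higher. The median of the 9 was -0.78, against -0.04 over all tested probes. For 8 of the 9 probes both shSnail ratios lay below both shLoxl2 ratios, as for 34% of all tested probes. B2m was the exception. The 2 H2-T23 probes were 2.77- and 2.75-fold lower (log2 -1.47 and -1.46, adjusted p = 0.02 and 0.0178). The second H2-K1 probe was 2.5-fold lower (log2 -1.32, adjusted p = 0.0211). H2-D1 had a log2 difference of -1.002 (interval -1.42 to -0.59, adjusted p = 0.0261). The first H2-K1 probe, at -0.67 (adjusted p = 0.0492), was saturated in shLoxl2 on both arrays. Its Cy5 level was at least 1.53-fold higher in shLoxl2 than in shSnail.

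Tapbp (log2 -0.78, interval -1.28 to -0.29) and Tap2 (-0.69, -1.13 to -0.25) were close to the threshold, with adjusted p = 0.0609 and 0.0605. Tapbp passed in 5 of 14 other settings. Tap1 had -0.39 (-0.791 to 0.00291, adjusted p = 0.156). B2m had -0.29, and its interval of -1.17 to 0.59 holds both a fall of the size seen for the heavy chains and a rise. It was 0.22 without shLoxl2 replicate 1 and -0.80 without replicate 2, each with 1 shLoxl2 array left. Leaving out a shSnail replicate leaves that arm with 1 array, assumed to vary like the others. None of the 9 then passed, when 47 and 39 probes passed over the whole array. The 5 heavy chain values ran from -1.61 to -0.705 without shSnail replicate 1 and from -1.56 to -0.639 without replicate 2. With all 6 arrays and a dye coefficient 3 of the 9 passed, and with the scanner's log ratios 3.

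Levels by dye were taken after normalization between arrays. They are built from the ratio and the brightness of both dyes, and so are no independent check of the ratios. shGFP and shSnail were each in Cy5 on 2 arrays, as was shLoxl2. At H2-T23 probe A_51_P410935 the log2 level was 10.03 and 10.15 in shGFP, 10.95 and 11.04 in shLoxl2 and 9.05 and 9.10 in shSnail, so the 3 RNAs did not overlap. For the second H2-K1 probe, shLoxl2 (13.91 and 13.92) lay above shGFP (12.70 and 13.15) and shSnail (12.83 and 13.04), and these last RNAs overlapped. At H2-D1 the shSnail level was 9.05 on both arrays, above shGFP (8.40 and 8.64) and just under shLoxl2 (9.11 and 9.30). Its unnormalized Cy5 mean intensities ran the other way, at 462 and 503 in shSnail, 546 and 545 in shGFP and 822 and 941 in shLoxl2. The place of H2-D1 in shSnail relative to shGFP thus differed between the normalized level and the other measures. B2m was at 10.29 and 11.56 in shGFP, 12.11 and 13.52 in shLoxl2 and 13.03 and 13.05 in shSnail, with both silenced RNAs above the control and overlapping each other. Tapbp was at 10.14 and 10.31 in shGFP, 10.61 and 10.65 in shSnail and 11.19 and 11.38 in shLoxl2.

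**Figure D3:**
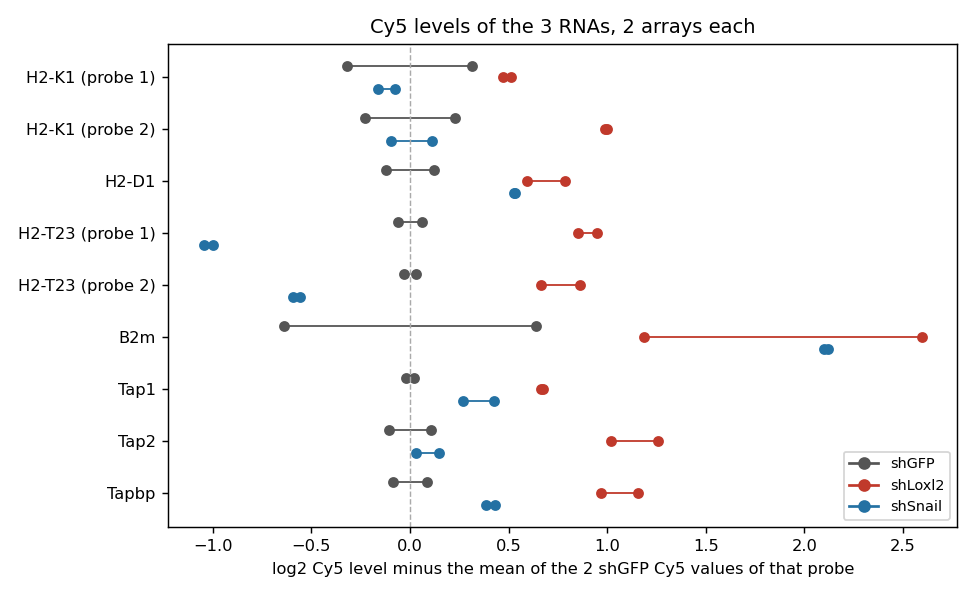
Log2 Cy5 level of each probe minus the mean of its 2 shGFP Cy5 values (horizontal axis), with 2 arrays per RNA joined by a line (grey shGFP, red shLoxl2, blue shSnail). shLoxl2 lies right of shGFP for all 9 probes, and shSnail lies left of shGFP for the 2 H2-T23 probes and right of it for H2-D1, B2m, Tap1 and Tapbp.

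The other class I heavy chains included probes named for Q region genes with the pattern of the members. Because of near-identical copies, these probes cannot be counted as separate genes with certainty. H2-Q5 had shLoxl2 ratios of 1.01, 0.97, 1.94 and 1.28. The H2-T23 probe A_51_P237760, listed for several genes, had 1.03, 0.99, 1.93 and 1.29 on the same arrays. Of 31 listed genes 17 were on the array and 15 were tested, 1 probe per gene. In shLoxl2 6 rose and none fell, with a list median of 0.12. These were H2-Q7 (log2 1.40), H2-Q10 (1.39), H2-Q5 (1.30), H2-Q2 (1.12), H2-T22 (1.12) and H2-Q1 (1.07). H2-Q7 had shLoxl2 ratios of 1.06 and 1.16 in replicate 1 and 2.02 and 1.35 in replicate 2, and shSnail ratios of -0.47 and -0.10. A second H2-Q10 probe, A_51_P230269, had a log2 change of 0.35 and did not pass. The 9 genes that did not pass lay between -0.28 (H2-T24) and 0.13 (Cd1d1), among them H2-M3 at 0.10. In shSnail none of the 15 passed (median -0.06). Against shLoxl2, 5 were lower in shSnail (H2-Q7, H2-Q5, H2-Q10, H2-Q2 and H2-Q1, from -1.54 to -1.14) and H2-T24 was higher (0.80). The H2-T24 ratios in shLoxl2 differed by dye, at -0.09 and 0.69 in Cy3 and -0.97 and -0.74 in Cy5. Its shSnail ratios were -0.12 and 0.01, so its call rests on the low shLoxl2 values in Cy5.

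Of 9 tested genes of the proteasome that cuts class I peptides, none rose and 2 fell in shLoxl2. Psme2, a subunit of the PA28 activator, fell by 0.88 on the log2 scale, with ratios of -0.87 and -0.89 in replicate 1 and -0.82 and -0.95 in replicate 2. Psmb7, a catalytic subunit of the standard proteasome, fell by 0.74. The interferon-inducible catalytic subunits Psmb8, Psmb9 and Psmb10 had -0.04, -0.18 and 0.34 and did not pass. Psmb8 was not well above background in the shLoxl2 channel on any of the 4 arrays. Psmb9 turned with the dye, at 1.08 and 0.88 with shLoxl2 RNA in Cy3 and -1.25 and -1.42 with it in Cy5.

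In shSnail, Psmb9 (log2 0.89, adjusted p = 0.0205) and Psmb8 (adjusted p = 0.0207) passed as higher. The measured Psmb9 ratios were -0.12 and -0.42, so its positive fitted value comes from the dye effect removed. Psmb8 had ratios of 0.82 and 0.93, with shGFP not well above background, and was at least 1.24-fold higher. By measured Cy5 level it was also 1.39-fold higher in shSnail than in shLoxl2, where shLoxl2 was not well above background. Psme4, a proteasome activator, fell (-1.62) at one probe and had 0.06 at the other. Psmb10 had 0.40 and did not pass. Against shLoxl2, 3 of the 9 subunits were higher in shSnail (Psmb9, Psmb8 and Psme2) and Psme4 was lower. The Psmb9 call rests on its low shLoxl2 ratios in Cy5, given above. Psme4 was lower at probe A_51_P166198 (-1.45) and had 0.07 at its other probe.

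Among the chaperones and peptidases of the loading pathway, 12 genes were tested. In shLoxl2 Ide (log2 0.81) and Thop1 (0.59), both peptide-degrading metallopeptidases, rose and Blmh, a cysteine peptidase, fell (-0.50). Thop1 had ratios of 1.55 and 1.42 in Cy3 and -0.51 and -0.09 in Cy5, a split by dye that cancels in the average. In shSnail Canx, the chaperone calnexin, fell (-1.01, ratios -1.01 and -1.20), as did the aminopeptidase gene Lnpep (-0.67). The measured Lnpep ratios were -0.40 and -0.25, so part of its fitted value comes from the dye effect removed. Erap1, which trims peptides in the endoplasmic reticulum, had -0.10 in shLoxl2 and 0.03 in shSnail and passed in neither. Against shLoxl2, Canx (-1.03) and Ide (-0.73) were lower in shSnail.

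Regulators of class I transcription were tested for 22 of 24 listed genes. Nlrc5 was not on the array by name. In shLoxl2 2 rose and 4 fell. Socs1, a feedback inhibitor of interferon signalling, rose by 1.26, with ratios of 1.35 and 1.12 in replicate 1 and 1.29 and 1.28 in replicate 2, and the kinase gene Tyk2 rose by 0.66. Creb1 (-0.84 at one probe, 0.08 at the other), the kinase gene Jak1 (-0.64), Nfkb1 (-0.64), which encodes an NF-kB subunit, and Nfyb (-0.49), which encodes a subunit of the CCAAT-binding factor, fell. Irf1, an interferon-induced activator, had ratios of 1.17 and 1.30 in replicate 1 and 0.30 and 0.61 in replicate 2 and did not pass (log2 0.84, adjusted p = 0.0772).

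In shSnail none of the 22 regulators rose and 7 fell. The falls of smallest p were in Creb1 (-2.54, against -0.33 at the other probe), Nfkb1 (-1.50), Jak2 (-0.91), Rfxank (-0.79), Nfyb (-0.83) and Rfxap (-0.66), and Jak1 also fell (-0.61). The measured Rfxank ratios in shSnail were 0.02 and 0.03, so its negative fitted value comes from the dye effect removed. In shLoxl2 they turned with the dye, at -0.90 and -0.93 in Cy3 and 0.73 and 0.68 in Cy5. Irf1 had -0.36 and did not pass. Against shLoxl2, 8 regulators were lower in shSnail and none higher, Socs1 among them (-1.15). Rfxank was also among them (-0.69), and its call rests on the high shLoxl2 ratios in Cy5. Each list's counts are read beside the share of all tested probes that moved, given above for each comparison.

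**Figure D4:**
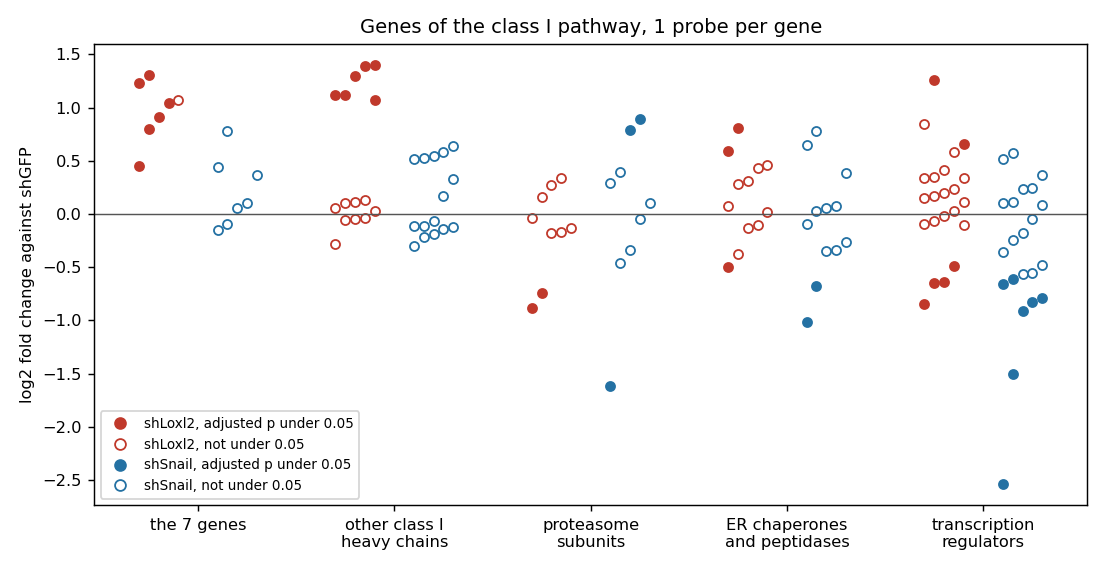
Log2 fold change against shGFP (vertical axis) of the 7 genes and of the 4 other class I pathway lists, 1 point per tested gene, red for shLoxl2 and blue for shSnail, filled where the adjusted p was under 0.05. In shLoxl2 6 of the 7 genes and 6 of 15 other heavy chains are filled above 0, and no proteasome subunit is.

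Of the 7 genes 6 lie on chromosome 17, and other probes there also rose in shLoxl2. Between the Tapbp and H2-D1 probes (chr17:33539531-35751453, mm8) 118 other probes were tested, of which 39 rose (33.1%) and 3 fell, with a median log2 change of 0.28. Leaving out every probe with an H2 name or with no RefSeq name left 79 probes, of which 21 rose (26.6%) and 2 fell (median 0.24). Examples are Zbtb12 (1.68), a zinc-finger gene, Ddr1 (1.41), a collagen receptor kinase, and Ppp1r10 (1.19), a phosphatase regulator. On the rest of chromosome 17, 116 of 788 probes rose (14.7%) and 14 fell. With 17.8% of its tested probes higher and 1.86% lower, chromosome 17 lay outside the range of the other autosomes and X, where 3.12% to 10.3% were higher and 4.05% to 9.74% lower. These sets were formed after the values were seen, and the part that position plays in the members' rise was not tested.

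Not every gene of that interval passed. Psmb9 and Psmb8 lie on either side of Tap1, starting at 33792517 and 33811095, and did not pass in shLoxl2. Psmb8 was dim in shLoxl2 and Psmb9 turned with the dye, as given above, so neither value shows that the gene did not change. The class II genes H2-Oa, H2-DMa, H2-Ob, H2-Eb1 and H2-Ea in the same stretch lay between -0.12 and 0.09, H2-DMb1 (0.27) and H2-Ab1 (0.36) did not pass, and H2-Aa rose (0.57). H2-Oa and H2-Ea were well above background in shLoxl2 on all 4 arrays, H2-Eb1 and H2-Ab1 on 3, H2-DMa and H2-DMb1 on 2 and H2-Ob on 1. B2m, off chromosome 17, had a fitted value as large as the heavy chains without passing. In shSnail 11 of the 118 probes rose (9.32%) and 1 fell, with a median of -0.00136, and against shLoxl2 27 were lower and 4 higher. By the scanner's own log ratios the interval's median in shLoxl2 was 0.41, against -0.04 over all tested probes, but 7 of the 118 probes were called higher and none lower. In shSnail the same ratios gave an interval median of -0.07, against -0.28 over all, with 5 called higher and 8 lower.

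**Figure D5:**
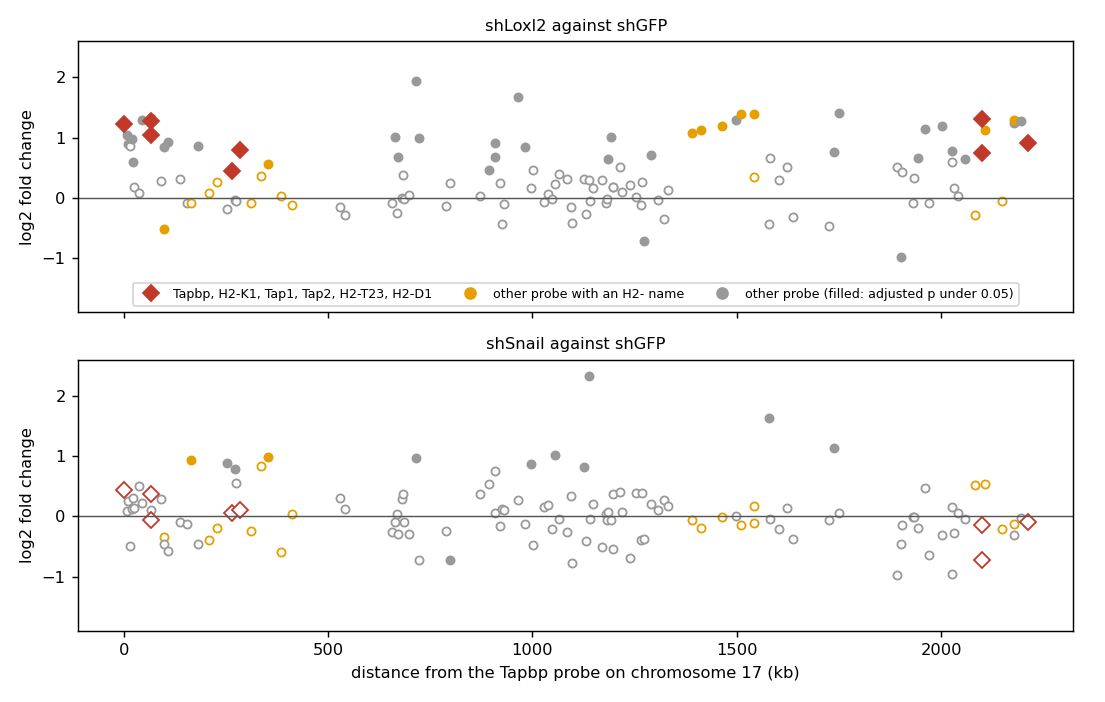
Log2 fold change (vertical axis) of tested probes against distance in kb from the Tapbp probe on chromosome 17 (horizontal axis), for shLoxl2 (top) and shSnail (bottom) against shGFP. Red diamonds are the members' 8 probes there, orange points other H2 probes and grey points all others, filled where the adjusted p was under 0.05. In the top panel filled points above 0 lie at both ends and along the interval, and in the bottom panel no diamond is filled.

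The genes most like B2m and H2-K1 over the 6 arrays were searched for by root mean square difference of the log2 ratios among 15692 named genes. For the first H2-K1 probe, whose shLoxl2 ratios in Cy5 are lower bounds, they were Dedd2 (0.13), Ski (0.13), Sh3tc1 (0.14), Ppp4r1 (0.15) and Bckdk (0.17). For the unsaturated H2-K1 probe A_51_P424261, a search added after the data were seen, the closest included Sf3b3 (0.26), Fam3c (0.26), Luc7l (0.26) and H2-Q2 (0.26), the last a class I heavy chain gene. For B2m they were Kyat3 (0.28), Mthfs (0.31), Tcirg1 (0.32), Gchfr (0.32) and Adi1 (0.33). Kyat3 shared with B2m the gap between shLoxl2 replicates, at 1.38 and 1.74 in replicate 1 and 0.43 and 1.14 in replicate 2, and had shSnail ratios of 0.80 and 0.75. The search used the same arrays as the members' values and was run for these 3 probes only.

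Markers of cells that carry much class I were looked at beside these results. Of 14 leukocyte markers tested 1 rose in shLoxl2 (Cd68, 0.66) and 1 in shSnail (Coro1a, 1.12), and none fell, with list medians of -0.04 and 0.04. On the 4 shLoxl2 arrays 5 of the 14 (Cd3e, Cd68, Csf1r, Coro1a and Cd14) were well above background for both RNAs on every array, and Itgam, Lyz2 and Tyrobp were not. The part of other cells in the members' values was not tested. No endothelial marker of 5 tested moved in either, and of 7 fibroblast markers 1 fell in each (Pdgfra, -0.82 and -1.18). Each of the 5 endothelial markers was well above background in shLoxl2 on 2 of the 4 shLoxl2 arrays. Among fibroblast markers, so were Col1a1, Col3a1 and Dcn, while Lum and Pdgfra were so on all 4 and Thy1 on 0. Of 10 class II genes H2-Aa rose in shLoxl2 (0.57). H2-Aa and H2-Oa passed as higher in shSnail, H2-Aa with neither RNA well above background on either array. Among 9 keratinocyte and epithelial markers 3 rose and 2 fell in shLoxl2, and 1 rose and 3 fell in shSnail. The labels name no tissue to set these against. In RNA of whole cultures, more cells of a kind and more RNA per cell cannot be told apart.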

How the data were processed

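RNA was hybridised as shLoxl2 or shSnail against shGFP on 6 Agilent arrays with 2 colours. The deposited files hold spot intensity values. Agilent Feature Extraction made them, in version 9.5.1.1 per the file headers but 6.1.1 per the submitters' processing notes. The software's log10 ratios of Cy5 over Cy3 were deposited in the same files. The authors' value table holds these log10 ratios rounded. Its columns are uncentred, with medians of 0.0371 to 0.098, and hold their arrays' ratios within 0.006 at 100% of spots, except that of shSnail replicate 2, which matched the array of replicate 1 (9.37% matched its own). Gene names and mm8 positions are those of the files, except list names matched through RefSeq accessions (14711 probes). RefSeq promoter windows come from GRCm38.p6, and Tap2 was not in that table. Exon and UTR positions of the probes were not analysed here.

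Mean intensities with local background medians were corrected by normexp (offset 50) and loess in limma 3.58.1 (R 4.3.3, data.table in version 1.17.8). The loess gave weight 0 to outliers and the 736 control spots. Averaging the 21318 other spots gave 20868 probes. A probe was tested if 2 or more arrays had it well above background in 1 channel or both, which held for 19751. Tests were lmFit and eBayes with p-values Benjamini-Hochberg adjusted at 0.05. Against shGFP, the 2 shLoxl2 arrays of a number were averaged with the sign turned (n = 2), and the 2 shSnail arrays entered the same fit as a second group, which pools their variance. shSnail against shGFP used all 6 arrays and a dye coefficient per probe. The 4 shLoxl2 arrays entered that fit as single values, so the 2 arrays of a dye swap count as separate observations of spread. shSnail against shLoxl2 used the 4 Cy5 arrays. In both comparisons with shGFP its RNA was counted as 1 control. Whether the arrays shared 1 shGFP preparation is not given in the labels. If they did, its own spread is not in the tests. Levels within a dye were normalized by Aquantile. Tests were tried on simulated data. The members and the 10 gene lists were chosen with earlier results of these data known. The rule for names took all members, list genes past the threshold (up to 6 per list and comparison by smallest p), Irf1, Psmb8, Psmb9, Psmb10, Erap1, Loxl2, Snai1 and the 5 genes most like B2m and H2-K1. Some genes that the rule names are not reported here. Genes outside it (H2-T24, Cd1d1, H2-M3, H2-T3, H2-M10.1, H2-Bl, Hfe, Jak1 in shSnail, the marker genes, the neighbours on chromosome 17) were named after their values were seen.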

Additional observations from a re-analysis of the deposited data

Results flagged for a closer look

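The effects of the 2 hairpins differed for the 5 heavy chain probes, by the test of the difference on the 4 Cy5 arrays (limma, adjusted over all 19751 probes). shSnail minus shLoxl2 was -0.6721 (log2) at the first H2-K1 probe, a bound because of saturation, and -1.322 at the second. It was -1.002 for H2-D1 and -1.47 and -1.46 for the 2 probes of H2-T23. Both shSnail arrays lay below both shLoxl2 arrays in each of these. Scan day and hairpin cannot be told apart here, and both hairpins were set against shGFP RNA, counted as 1 control.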

How the results depend on the processing

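In shLoxl2 the 9 probes stayed above 0 in all settings. Of the 8 calls, 5 remained with only the Cy3 arrays, 1 with the scanner's log ratios, 1 with these centred on each array's median (added after seeing the data) and 0 with the value table, which called 0 probes in all. Both shSnail columns of the value table hold the array of replicate 1, which also enters the pooled spread. Its counts, here and below, are therefore no test of the calls. Leaving out a replicate leaves 1 sample in its group, so the counts from such fits below are no test of the calls. The setting with the 4 shLoxl2 arrays as single values was also added after seeing the data. B2m passed in 7 of 16 settings (0.41 to 1.73) and the H2-T23 probe A_51_P410935 failed in 6 of 16.

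In shSnail the count of 0 became 1 with no background subtraction, 2 with median centring, 1 with both channels above background, 1 with no dye correction and 1 with the replicate block. Leaving out a replicate gave 0 to 2. Replicate numbers gave no pairing by the labels: deviations of same-numbered samples correlated at 0.323 over 2 pairs. The block gave 9 calls in shLoxl2.

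In shSnail against shLoxl2 the count of 5 became 3 with the scanner's log ratios, 1 with these centred, 0 with the value table and 3 with all 6 arrays and the dye coefficient. It was 7 with median centring, 6 with no background subtraction, 6 with both channels above background, 5 with the replicate block, and 4 with normexp offset 16 or with every probe tested. Leaving out a replicate gave 0 to 6.

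Values that changed sign were not called there. In shSnail the H2-K1 probe A_51_P424261 became 0.00805 with the scanner's ratios, 0.207 with these centred, 0.0346 with no dye correction, and ran from -0.249 to 0.146 with a replicate left out. Tap1 became -0.487, -0.693 with the value table and -0.288 centred, and ran from -0.0649 to 0.186 with a replicate left out. Tapbp became -0.0707 with median centring, Tap2 ran from -0.0295 to 0.237 with a replicate left out, and H2-D1 and H2-T23 (A_51_P237760) 0.064 and 0.0768 with centred scanner ratios. Against shLoxl2, Tap1 became 0.0504 with median centring and B2m ran from -0.797 to 0.217 with a replicate left out. The causes were not tested. The scanner's ratios shifted the median of all probes to -0.277 in shSnail. Median centring moved the share of higher among all calls from 38.7% to 51.1% in shSnail. Slide or scan day as a block was not run, since each slide held 1 array and each scan day 1 group.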
